A study of Drosophila melanogaster with 10 samples.

Results

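Mitochondrial ribosomal protein genes of Drosophila melanogaster were selected by symbol, as all genes whose FlyBase symbol starts with mRpL or mRpS. Of 73 such symbols in the table of gene names, 71 had a row in the RNA-seq tables of 13937 genes, and mRpS5 and mRpS34 were not analysed here. The 71 genes comprise 47 named mRpL and 24 named mRpS. Since the mammalian counterparts of mRpS30 and mRpS18A sit in the large subunit, 49 genes were placed in the large and 22 in the small subunit.

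The series holds 10 samples, of which 6 DamID-seq libraries of embryos were not used here and 4 are RNA-seq libraries of the S2 cell line, an embryonic line with features of hemocytes, the blood cells of the fly. Control cells (2 libraries) received double-stranded RNA against the bacterial gene LacZ, and Elys-KD cells (2 libraries) received double-stranded RNA against Elys, which encodes a nucleoporin that binds chromatin and joins the nuclear pore complexes. All cells were treated for 3 days and then for a further 2 days, and all libraries were made from poly(A)+ RNA. The knockdown is transient and acts in a culture of a single cell line, so the libraries of a group are separate samples of that line. The p-values set the difference between the groups against the spread between such libraries. With 2 libraries per group, that spread is estimated with information shared across genes.

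The mitochondrial ribosome translates the few messages of the mitochondrial genome, which in the fly encode subunits of the respiratory chain and ATP synthase. Its rRNAs are made inside the organelle, whereas its proteins are encoded in the nucleus, made in the cytosol and imported. Some of these proteins descend from bacterial ribosomal proteins and others exist only in mitochondria. By the mammalian names, 43 of the 71 genes have a bacterial counterpart and 28 are mitochondria-specific. The question asked here is how this set of nuclear genes was expressed in S2 cells and whether its mRNA levels differed after Elys depletion.

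Estimated counts per library ranged from 57622326 to 68034643. Elys itself was at 28.3 and 30.2 TPM (a transcript level scaled by gene length and library) in the controls and at 4.96 and 4.55 TPM in Elys-KD (log2 fold change −2.67, SE 0.046, adjusted p = 1.315e-06 in edgeR's quasi-likelihood test), so the libraries match their labels. Of 7 hemocyte markers, srp, Pvr and crq lay between 66.5 and 382 TPM, Hml and Pxn between 6.14 and 14.3 TPM, and Sr-CI and NimC1 were at or near 0. Summed TPM of neuronal markers was 3.17 to 4.31 per library, most of it from elav, the gut marker Try29F lay between 3.31 and 3.78 TPM, and the sums of muscle, fat body, ovary and germline markers were each at most 1.22. Among these markers Pxn, brp and osk rose and Pvr fell upon Elys-KD, and their part in the values below was not tested. In bulk RNA a lower level cannot be told apart from fewer cells that express the gene.

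All 71 genes were expressed. Their mean TPM over the 4 libraries ranged from 30.5 for mRpL38 to 284 for mRpL34, a ratio of 9.31, with a median of 82.3 and quartiles of 57.4 and 110. Of the 71 genes, 24 lay above 100 TPM, 39 between 50 and 100 TPM and 8 below 50 TPM. Of the genes in the tables, 27% had a mean TPM at or above that of the lowest member, and 3.2% lay above the highest. By contrast, 5 of 87 cytoplasmic ribosomal protein genes and 21 of 86 nuclear respiratory chain genes, chosen by symbol prefix, had a mean TPM under 1. The prefixes also take in genes such as COX4L, COX7AL, ND-51L1, RpL24-like and Sdhaf3. These shares are therefore not shares of the subunits alone. The median level of the cytoplasmic ribosomal protein genes was 3855 TPM and that of the respiratory chain genes 202 TPM. Together the mitochondrial ribosomal protein genes took 0.682% and 0.667% of all TPM in the controls and 0.661% and 0.677% in Elys-KD, and the values of the groups overlapped.

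**Figure D1:**
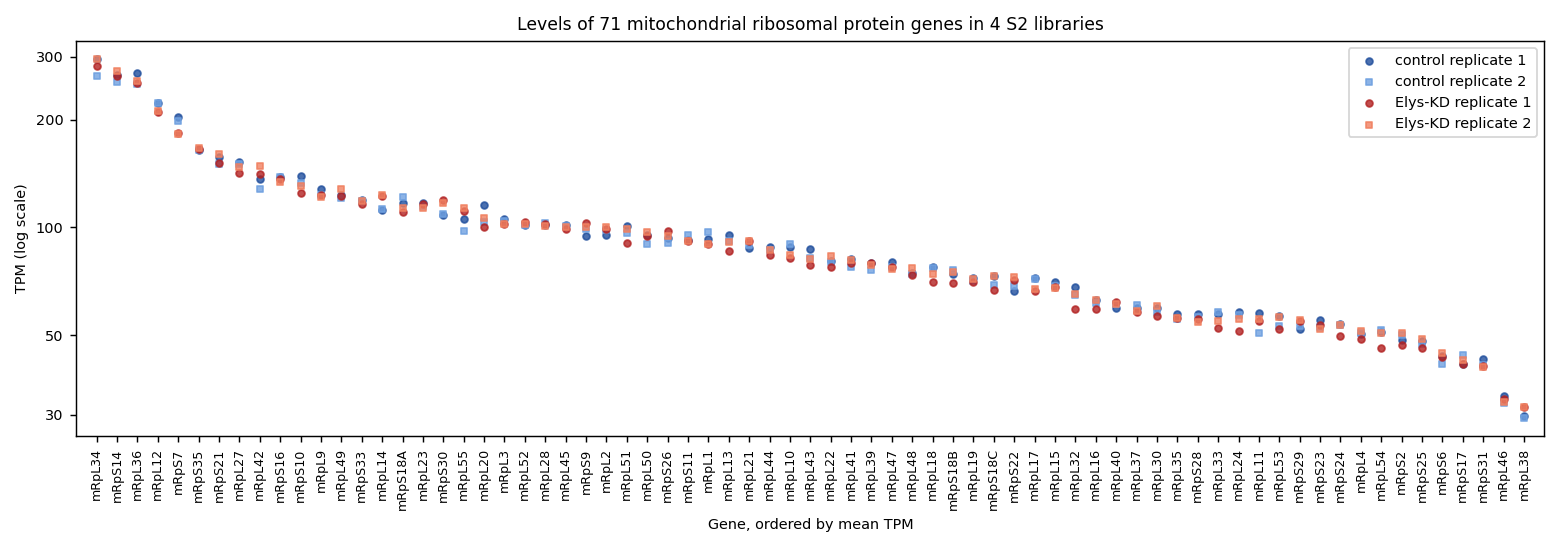
TPM (log axis) of the 71 mitochondrial ribosomal protein genes in each library, ordered by mean TPM (blue, control replicates; red, Elys-KD replicates). Levels span from 30.5 TPM for mRpL38 to 284 TPM for mRpL34, and the points of the groups lie close together at each gene.

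The 5 highest levels belonged to genes with a bacterial counterpart. mRpL34 encodes a small protein of the large subunit and was at 295 and 265 TPM in the controls and at 282 and 296 TPM in Elys-KD. mRpS14, for a protein of the head of the small subunit, was at 266, 255, 265 and 274 TPM in the same order of libraries. mRpL36, whose product is also very small, was at 271, 252, 253 and 257 TPM. For these 3 genes the values of the groups overlapped, and the control replicates differed by more than the group means did. mRpL12 encodes the stalk protein that contacts translation factors, and in mammals it also binds the mitochondrial RNA polymerase. It was at 223 and 222 TPM in the controls and at 210 and 211 TPM in Elys-KD, with both knockdown libraries below both controls (log2 fold change −0.08, SE 0.035, adjusted p = 0.16). mRpS7, for a protein of the small subunit head beside the path of the mRNA, was the fifth by level and is described below.

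The lowest levels were those of mRpL38 and mRpL46, both mitochondria-specific proteins of the central protuberance of the large subunit. mRpL38 was at 29.7 and 29.4 TPM in the controls and at 31.6 and 31.4 TPM in Elys-KD, with the groups not overlapping (log2 fold change 0.06, SE 0.036, adjusted p = 0.264). mRpL46 was at 33.8, 32.4, 33.2 and 32.5 TPM, with overlapping groups. The next genes from below were in the small subunit. mRpS31 was at 42.8, 41.2, 40.9 and 40.8 TPM, mRpS17 at 41.4, 44.1, 41.5 and 42.7 TPM, and mRpS6 at 43.9, 41.5, 43.4 and 44.6 TPM. The ranges of these last 3 genes overlapped, so their order is not resolved. Along the whole order of levels, 62 of 70 pairs of neighbours had overlapping ranges over the 4 libraries and 8 did not.

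Levels in TPM depend on the effective length, the gene length less what the length of the sequenced fragments takes from it. The members are short, with a median length of 738 bp against 1876 bp for all 9156 genes tested, and 8 of them are shorter than 500 bp. With counts per kb of full length in place of TPM the ratio of the highest to the lowest member was 6.2, mRpS14 was first and mRpL34 sixth. Among members of at least 500 bp the ratio in TPM was 7.09. Over the 71 genes the Spearman correlation of length with mean TPM was −0.296, and with counts per kb it was −0.077. All genes share the libraries behind these correlations, which are given as a description.

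Upon Elys-KD, 1 of the 71 genes rose (mRpL14) and 1 fell (mRpS7) when the threshold on the adjusted p was 0.05 (quasi-likelihood test of edgeR, 9156 genes tested), and all 71 had passed the filter on low counts. Over all genes tested, 16.6% were called (8.07% higher and 8.56% lower), so that the 2 of 71 members called (2.82%) were fewer than that background. At an unadjusted p under 0.05, 4 members were higher and 4 lower, against 32.6% of all genes (15.9% higher and 16.7% lower). With the study's additional demand of a 1.5-fold ratio of mean TPM, 0 of 71 members were called by edgeR, against 3.19% of all genes (2.54% higher and 0.644% lower). Without the fold demand DESeq2 called 1 member, mRpS7, against 14.7% of the 8655 genes to which it gave an adjusted p (6.46% higher and 8.25% lower). The ratios of mean TPM of the 71 genes ran from 0.91 for mRpS7 to 1.10 for mRpL55. No member could therefore meet the fold demand in DESeq2 either, and the DESeq2 share of all genes under that demand is not given here.

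The sizes of the changes were small throughout. The log2 fold changes of the members ranged from −0.14 to 0.17 with a median of −0.025 and an SD of 0.064, and those of all genes had a median of 0.00027 and an SD of 0.38. In 63 of 71 members (88.7%) the log2 fold change was within 0.1 of 0, against 51.7% of all genes. Neither comparison with all genes was matched for level. Every member was at a mean of 30.5 TPM or more, a level that 41.1% of the genes tested reached. The 95% intervals of the 71 genes reached from −0.29 to 0.30, and the interval of each of the 71 lay within a 1.25-fold change in either direction. With the effective length as an offset (below) this held for 70 of 71, with mRpL33 reaching −0.35. By sign, 25 members had positive and 46 negative values. In CPM, the counts per library scaled by total and TMM factor, both Elys-KD libraries lay above both controls for 12 genes and below both for 18, that is 30 of 71 without overlap against 60.5% of all genes (30% above and 30.6% below).

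**Figure D2:**
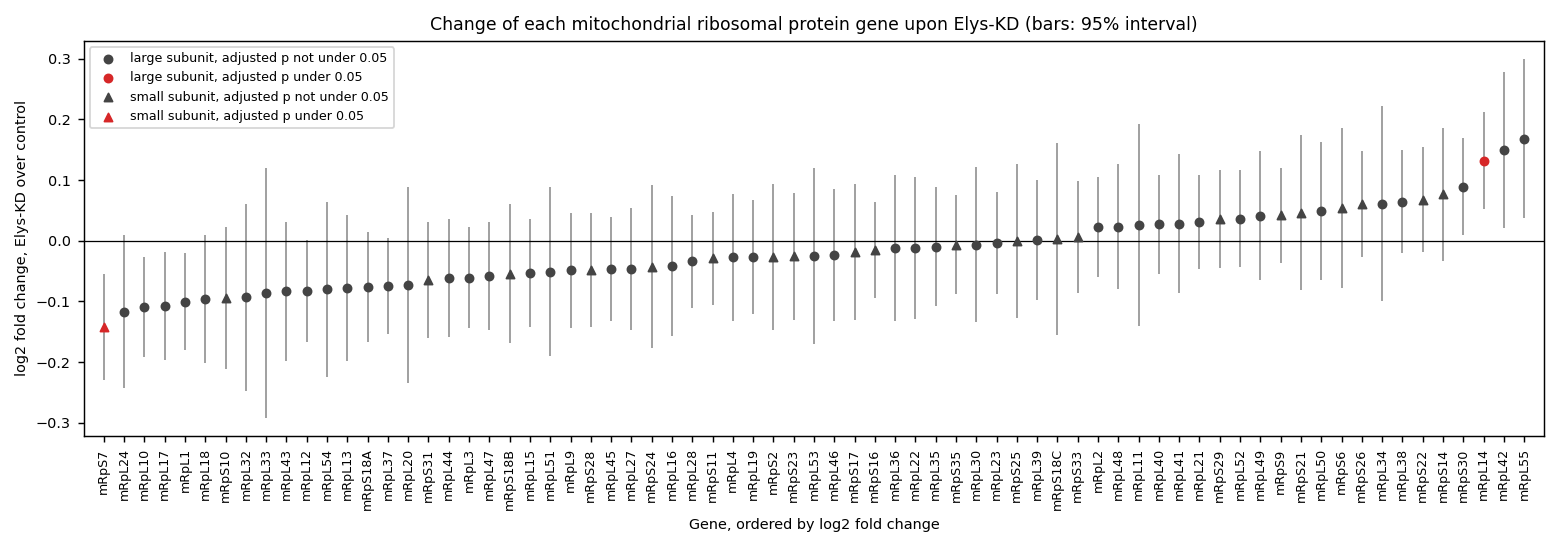
Log2 fold change (Elys-KD over control) of each of the 71 genes with its 95% interval, ordered by value (circles, large subunit; triangles, small subunit; red, adjusted p under 0.05 in edgeR). Values run from −0.14 for mRpS7 to 0.17 for mRpL55, and mRpL14 and mRpS7 are the genes that passed the test.

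mRpL14 encodes the counterpart of a bacterial protein at the face of the large subunit that meets the small one. It was at 112 and 113 TPM in the controls and at 122 and 123 TPM in Elys-KD. Both knockdown libraries were above both controls, and the replicates of each group were nearly equal (log2 fold change 0.13, SE 0.034, 95% interval 0.052 to 0.21, edgeR adjusted p = 0.0404). With the effective length of each library in the model the change was 0.096 with an adjusted p of 0.104, and without any single library the change was 0.11 to 0.16, close to the full value, with an adjusted p between 0.0501 and 0.186. No other gene overlaps mRpL14 in the Release 6 annotation.

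mRpS7 was at 204 and 199 TPM in the controls and at 183 and 182 TPM in Elys-KD. Both knockdown libraries lay below both controls, by more than the replicates differed (log2 fold change −0.14, SE 0.037, 95% interval −0.23 to −0.054, edgeR adjusted p = 0.0434). The effective length kept the call (log2 fold change −0.17, adjusted p = 0.0234). Leaving out control replicate 1, control replicate 2 or Elys-KD replicate 1 gave log2 fold changes of −0.11, −0.17 and −0.13 with adjusted p-values of 0.229, 0.0905 and 0.124, and the call was held without Elys-KD replicate 2. mRpS7 also overlaps no other gene.

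The other genes with the largest positive values did not pass the test. mRpL55, short and with a bacterial counterpart, was at 106 and 98.0 TPM in the controls and at 111 and 114 TPM in Elys-KD (log2 fold change 0.17, SE 0.056, adjusted p = 0.0841). mRpL42, a mitochondria-specific protein, was at 136 and 128 TPM in the controls and at 141 and 148 TPM in Elys-KD (0.15, SE 0.054, adjusted p = 0.108). For both genes the groups did not overlap, but the control replicates also lay well apart. Both genes are shorter than 500 bp, and with the effective length their values were 0.11 and 0.094. Without control replicate 1 both passed the test (0.24 and 0.21), as did mRpL42 without Elys-KD replicate 1 (0.20), whereas without control replicate 2 they were at 0.10 and 0.094.

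mRpS30, the longest member at 1823 bp, was at 108 and 109 TPM in the controls and at 119 and 117 TPM in Elys-KD (log2 fold change 0.089, SE 0.034, adjusted p = 0.118). Its value hardly moved with the effective length (0.091), and limma on log2 TPM called it. mRpS22, a mitochondria-specific protein of the small subunit, was at 66.3 and 68.7 TPM against 71.2 and 72.8 TPM (0.067, adjusted p = 0.253). In both genes the knockdown libraries stood above the controls, with ratios of mean TPM of 1.09 and 1.07.

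The 5 most negative values after mRpS7 belonged to large subunit genes with a bacterial counterpart. mRpL24, for a protein at the tunnel through which the new chain leaves, was at 58.1 and 56.9 TPM in the controls and at 51.3 and 55.4 TPM in Elys-KD (log2 fold change −0.12, adjusted p = 0.181). The control replicates of mRpL24 were close and the Elys-KD replicates apart, and its value was −0.044 when Elys-KD replicate 1 was left out and reached −0.19 when replicate 2 was, where it passed the test (adjusted p = 0.0359). mRpL10 anchors the stalk proteins and was at 88.0 and 89.9 TPM against 82.3 and 83.8 TPM (−0.11, adjusted p = 0.0771). mRpL17, a further tunnel protein, was at 72.0 and 71.9 TPM against 66.5 and 67.1 TPM (−0.11, adjusted p = 0.101). In each of these genes both Elys-KD libraries lay below both controls, most evenly in mRpL10 and mRpL17, which passed the test once the effective length was in the model (adjusted p = 0.0468 and 0.042). mRpL1, whose bacterial counterpart forms the mobile stalk where spent tRNAs leave, was at 92.7 and 96.9 TPM against 90.0 and 89.6 TPM (−0.10, adjusted p = 0.0893). mRpL18, whose bacterial counterpart binds the smallest rRNA of the large subunit, was at 77.4 and 76.9 TPM against 70.5 and 74.1 TPM (−0.096, adjusted p = 0.186). The annotation places another gene over parts of mRpL24 (synr), mRpL10 (CG11617), mRpL17 (CG34263), mRpL1 (nac), mRpL18 (ox) and mRpL42 (Cdc2rk), and 42 of the 71 members overlap some other gene. Overlaps also exist for mRpL34 (CG8414), mRpS14 (CG32533 and Naa15-16), mRpS22 (Boh1) and mRpS31 (mib1), whose levels are given above. Whether the counting used the strand is not given in the sources used here, so reads of such neighbours may be shared.

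By function, at most 1 gene of each group of subunits passed the test. In the stalk and the centre where translation factors bind, mRpL12 and mRpL10 had the values above, and mRpL11 was at 57.6 and 50.7 TPM against 54.7 and 55.4 TPM with overlapping groups. Around the peptidyl transferase centre, where peptide bonds form, mRpL2 was at 95.2, 98.4, 98.9 and 100.2 TPM and mRpL3 at 105, 105, 102 and 103 TPM. Here 0 of 4 genes (mRpL2, mRpL3, mRpL4 and mRpL16) passed the test, at an unadjusted p under 0.05 as well, against 16.6% and 32.6% of all genes. Among so few genes a count of 0 cannot be told apart from that background. The log2 fold changes ran from −0.061 to 0.023.

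At the exit tunnel and the side that faces the inner membrane, mRpL22, mRpL23, mRpL24, mRpL44 and mRpL45 all had negative values, from −0.12 to −0.0031. Of these 5, 0 passed the test, at an unadjusted p under 0.05 as well, against 16.6% and 32.6% of all genes. Again the genes are too few to tell this count apart from that background. mRpL45 helps to dock the ribosome at the inner membrane and was at 101 and 101 TPM against 99.0 and 100.3 TPM. DESeq2 called none of the genes of these groups either. Among the 4 members of the decoding site and the mRNA path, 1 fell (mRpS7), against 8.56% of all genes called lower. tko, the counterpart of a further decoding site protein, carries another name, is not among these 4 and is described below. mRpS9 was at 94.9 and 99.3 TPM against 103 and 101 TPM (log2 fold change 0.042, edgeR adjusted p = 0.428). mRpS2 and mRpS11 had values of −0.027 and −0.029. mRpS29 encodes the GTP-binding subunit known in mammals as DAP3 and was at 51.9 and 53.2 TPM against 54.6 and 55.2 TPM (0.036, adjusted p = 0.517).

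The median log2 fold change was −0.028 over the 49 large subunit genes and −0.011 over the 22 small subunit genes. Of the genes with a bacterial counterpart, 11 of 43 had positive values (median −0.029), and of the mitochondria-specific genes 14 of 28 (median 0.00036). Both called genes have a bacterial counterpart. Without control replicate 1, control replicate 2, Elys-KD replicate 1 or Elys-KD replicate 2 the large subunit medians were 0.0018, −0.066, 0.0087 and −0.068. The small subunit medians were then 0.013, −0.021, 0.032 and −0.036, in each case above the large subunit median. With the effective length as an offset (below) both subunit medians were −0.051. Positive values were then held by 8 of 43 genes with a bacterial counterpart (median −0.062). Among the mitochondria-specific genes they were held by 8 of 28 (median −0.03). Medians of these lists by origin without single libraries are not given here. The differences between the lists were not tested.

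The members moved together between replicates. In CPM, Elys-KD replicate 2 was above Elys-KD replicate 1 for 69 of 71 genes, with a median log2 difference of 0.064, and control replicate 2 was above control replicate 1 for 13 of 71, with a median of −0.059. The 4 differences between a knockdown and a control library had medians of −0.093, −0.015, −0.028 and 0.038, with an SD of 0.054. The median shifts of both replicate pairs were thus farther from 0 than 3 of the 4 between groups, and the sign of the members' median differed with the libraries compared. Without control replicate 1 the median was 0.0054 and without Elys-KD replicate 1 it was 0.014, against −0.047 without control replicate 2 and −0.058 without Elys-KD replicate 2. Cytoplasmic ribosomal protein genes shifted the same way, with Elys-KD replicate 2 above replicate 1 for 79 of 83 genes tested, as did nuclear respiratory chain genes, with 58 of 68. Over all genes tested it was 4648 of 9156. In TPM, Elys-KD replicate 2 was above replicate 1 for 50 of the 71 members.

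**Figure D3:**
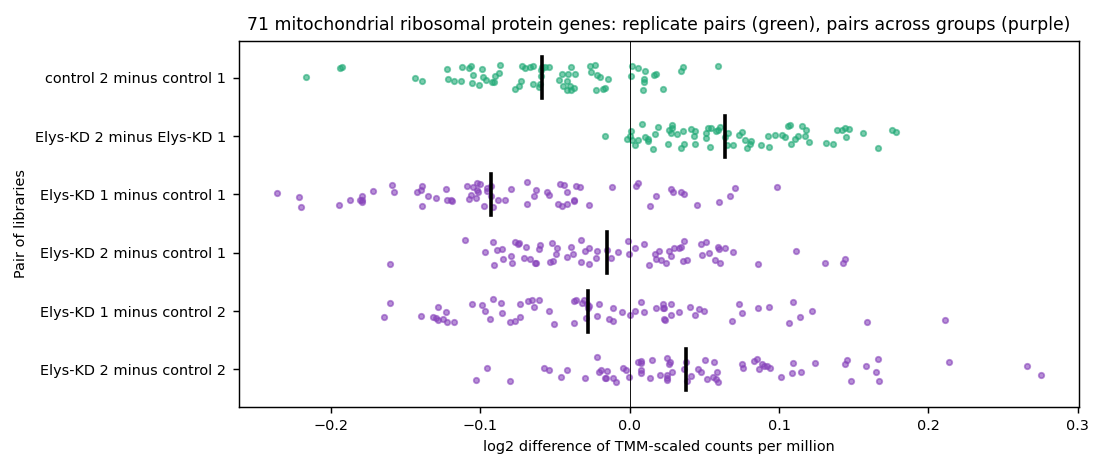
Log2 difference of TMM-scaled CPM of the 71 genes (points, with the median as a black bar) for each pair of libraries, with replicate pairs in green and pairs across groups in purple. The medians of the replicate pairs, −0.059 and 0.064, are farther from 0 than 3 of the 4 across groups.

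Fragment length also differed between the groups. The gene length exceeded the effective length by 203 and 205 bp in the controls and by 184 and 184 bp in Elys-KD, and effective lengths in Elys-KD were thus larger by a median of 0.051 on the log2 scale for the members and 0.017 for all genes. With these lengths as an offset, the members' median log2 fold change was −0.051 in place of −0.025, 55 of 71 values were negative, and 0 members were higher and 3 lower at an adjusted p under 0.05 (mRpS7, mRpL10 and mRpL17), against 16.8% of all genes (8.36% higher and 8.49% lower). Across the 71 genes the Spearman correlation of length with log2 fold change was −0.183 without and 0.053 with the offset. Scaling by library totals alone moved the median to 0.0023, with 39 positive values.

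**Figure D4:**
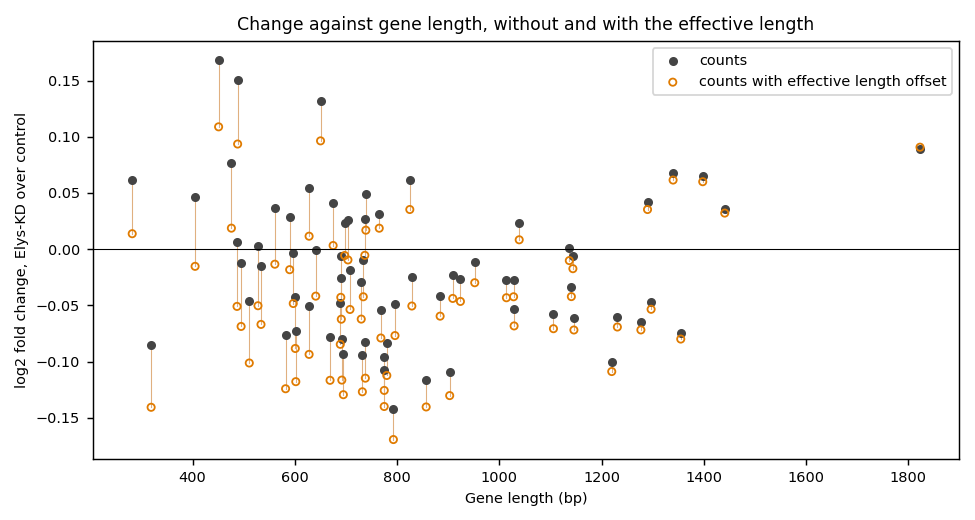
Log2 fold change (Elys-KD over control) of the 71 genes against gene length in bp, from counts (filled) and with the effective length as an offset (open), joined per gene. Short genes move more than long ones, as mRpL55 from 0.17 to 0.11 and mRpL34, the shortest, from 0.06 to 0.014, whereas mRpS30 at 1823 bp stays near 0.09.

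Proteins of the mitochondrial ribosome that carry other names were examined as well. tko, the counterpart of a decoding site protein in which a classic mutation causes bang-sensitive seizures in flies, was at 77.6 and 79.7 TPM in the controls and at 69.7 and 69.5 TPM in Elys-KD. Both knockdown libraries lay below both controls, and the gene fell (log2 fold change −0.17, SE 0.034, edgeR adjusted p = 0.0193). The call was lost in DESeq2 and without control replicate 1, control replicate 2 or Elys-KD replicate 1, with adjusted p-values up to 0.101. bonsai, a further small subunit protein, was at 129, 125, 118 and 120 TPM (−0.11, adjusted p = 0.124), and CRIF at 174, 168, 167 and 170 TPM (−0.027, adjusted p = 0.697). Of these 3 genes 1 was therefore called lower, against 8.56% of all genes.

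Among 9 translation factors of mitochondria, 1 fell and 0 rose (11.1% called, against 16.6% of all genes). The gene that fell was mIF2, whose product brings the initiator tRNA to the ribosome. It was at 37.0 and 37.4 TPM in the controls and at 33.6 and 31.6 TPM in Elys-KD, without overlap (log2 fold change −0.23, SE 0.034, edgeR adjusted p = 0.00666), and it stayed under 0.05 in all 13 alternatives. The elongation factor mEFTu1 was the most abundant at 204 and 210 TPM against 208 and 209 TPM. The median level of the 9 factors was 23.3 TPM, below the lowest ribosomal protein gene, and their median log2 fold change was −0.066.

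The messages that the mitochondrial ribosome translates behaved otherwise. All 13 protein genes of the mitochondrial genome fell upon Elys-KD (edgeR, adjusted p under 0.05), against 8.56% of all genes. Their log2 fold changes ran from −1.96 for mt:ND6 to −0.33 for mt:CoI, with a median of −0.55. mt:CoI, a core subunit of cytochrome oxidase, was at 971 and 1040 TPM in the controls and at 856 and 783 TPM in Elys-KD. mt:ND6, a subunit of complex I, was at 11.5 and 9.98 TPM against 1.63 and 3.77 TPM. It had only 29 and 68 estimated counts in the Elys-KD libraries (SE of the log2 fold change 0.345). mt:ND4L likewise had 46 and 109 there (log2 fold change −1.48, SE 0.347). mt:ND2, with 429 and 491, was at −1.89 (SE 0.107). Both knockdown libraries were below both controls in each of the 13 genes. Their summed share of all TPM was 1.24% and 1.28% in the controls and 0.902% and 0.899% in Elys-KD, a ratio of 0.715, whereas that of the 71 mitochondrial ribosomal protein genes had a ratio of 0.992. Over 13 alternatives, which include leaving out each library, between 11 and 13 of the genes were called lower and all 13 values were negative. These genes are processed from few long transcripts and are not independent, and the part of poly(A) selection in their counts was not tested. The 2 rRNAs of the mitochondrial ribosome were not analysed here.

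Of the nuclear respiratory chain genes, 3 of 68 tested rose and 6 fell (13.2% called, against 16.6% of all genes), with a median log2 fold change of −0.0063. Of the cytoplasmic ribosomal protein genes, 4 of 83 rose and 4 fell (9.64% called, against the same 16.6%), with a median of 0.021. With the effective length as an offset none of these rises was called, while 8.36% of all genes were called higher and 8.49% lower. Then 0 rose and 6 fell among the respiratory chain genes. Among the cytoplasmic ribosomal protein genes 0 rose and 5 fell, and their median was then −0.01. The SD of the log2 fold changes was 0.12 and 0.082 in these lists and 0.064 in the mitochondrial ribosomal protein genes. The respiratory chain list, taken by symbol prefix, includes COX5BL (log2 fold change 0.45), COX7AL (0.38) and COX4L (−0.28). The part of such genes in its SD was not tested. No test of the difference between lists was run.

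**Figure D5:**
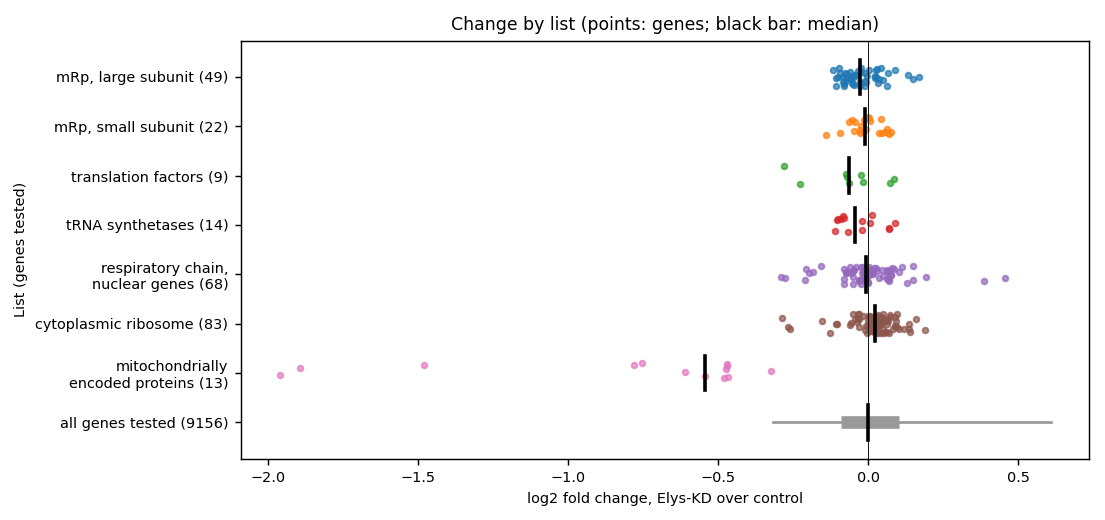
Log2 fold change (Elys-KD over control) of single genes by list (points), with the median as a black bar; for all 9156 genes tested the thick bar spans the quartiles and the thin line the 5th to 95th percentile. Mitochondrial ribosomal protein genes lie between −0.14 and 0.17, and the 13 mitochondrially encoded protein genes between −1.96 and −0.33.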

How the data were processed

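The authors purified poly(A)+ RNA from S2 cells and deposited a gene table per library; per the labels the tools included Salmon, HISAT2 and DESeq2 and the builds dm3 and BDGP5. The deposited estimated counts are not normalized, and the TPM deposited by the authors are scaled by effective length and library. Deposited gene length and effective length are in bp. Per the study's methods, uniquely mapped reads were counted over genes of a FlyBase Release 5 annotation. Tool versions and the strand setting are not given in the sources used here. Domain files of the DamID-seq libraries were not used.

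Estimated counts were rounded and tested in R 4.3.3 with edgeR 4.0.16 (TMM, filterByExpr, quasi-likelihood test, no block, Benjamini-Hochberg adjustment over all 9156 genes tested). Library totals lay between 57622326 and 68034643, and members had 422 to 11006 estimated counts per library. With 2 libraries per group an exact permutation test of a single value cannot go below p = 0.333, so none was used. limma 3.58.1 on log2(TPM + 1) or log2(TPM + 0.1), for genes of at least 1 mean TPM, and DESeq2 1.42.0 served as alternatives, with other scalings, no filter, an effective length offset, a replicate block and leaving out each library. Tables and plots used Python 3.11.15, pandas 2.3.3, NumPy 2.4.6, SciPy 1.17.1 and Matplotlib 3.10.9. The edgeR, DESeq2 and limma fits were tried on simulated counts with changes larger than those of any member. The offset was run there with equal effective lengths in all libraries, so differing lengths were not simulated. The replicate block, other scalings and left-out libraries were not simulated either. Symbols came from a FlyBase name table (13388 of 13937 identifiers), and gene overlaps from the RefSeq Release 6 annotation.

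Named genes are the 5 highest and 5 lowest members by mean TPM, the 6 largest positive and 6 largest negative log2 fold changes, and every called member; subunit groups are given by role. The members and lists were chosen with earlier results of these data known.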

Additional observations from a re-analysis of the deposited data

How the results depend on the processing

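The number of members called was small under every setting tried, and which genes were called was not stable. The main setting gave 1 higher and 1 lower, against 16.6% of all genes called. DESeq2 gave 0 higher and 1 lower (against 14.7%), and limma 2 and 1 (against 16.8%) with pseudocounts of 1 and 0.1 alike. Library totals alone gave 1 and 0 (against 16.9%), and no filter 0 and 0 (against 8.57%). The effective length offset gave 0 and 3 (against 16.8%), and an adjusted p under 0.1 gave 2 and 3 (against 24.7%). The study's fold rule gave 0 and 0 (against 3.19%). With a replicate block the counts were 0 and 0, against 12.1% of all genes. The replicate numbers were not shown to pair the samples, since the correlation of same-numbered deviations was −0.0607. Leaving out each library gave 0 to 2 higher and 0 to 2 lower, against 7.98% to 16.1% of all genes. The ratio of the highest to the lowest level was 6.195 in counts per kb and 7.091 for members of at least 500 bp. Both were chosen after seeing the data, as was the offset joined with library totals. That joined setting gave 1 higher and 1 lower, against 17.2% of all genes. Library totals alone turned the calls over all genes to 976 higher and 570 lower (63.1% higher, against 48.5%). limma gave 61.8%, and offset with totals 65.6%.

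Of 260 comparisons of named members, 229 kept direction and side of the threshold, 14 lost and 8 gained the call, and 9 changed sign in 4 members whose main values were near 0. Leaving out each library, mRpL34 ran from −0.028 to 0.161, mRpL36 from −0.077 to 0.058, mRpS17 from −0.057 to 0.0201 and mRpL46 from −0.065 to 0.023. With library totals alone mRpL36 was 0.015, mRpS17 0.0087 and mRpL46 0.0042. The cause was not tested. In the main setting, with 2 libraries per group, none of the 63 members with a log2 fold change within 0.1 of 0 was called.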

Other observations

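The enzymes that charge tRNAs in mitochondria were expressed well below the ribosomal proteins. Of 17 symbols listed, 14 were matched and tested, with mean TPM from 3.66 to 39.6 and a median of 15.8. In edgeR 0 of 14 passed an adjusted p under 0.05, and 2 were lower and 0 higher at an unadjusted p under 0.05, against 16.6% and 32.6% of all genes. Their log2 fold changes ran from −0.11 to 0.09 with a median of −0.045. Of 9 factors of ribosome assembly and rRNA modification or of the mTERF family, 4 were matched. mtTFB1, an rRNA methyltransferase, was at 68.3 and 66.5 TPM in the controls and at 73.6 and 74.2 TPM in Elys-KD (log2 fold change 0.10, edgeR adjusted p = 0.118), and mTTF at 16.5 and 16.7 TPM against 15.7 and 15.5 TPM (−0.12). In edgeR 0 of these 4 genes passed the adjusted test, while 1 was higher and 2 were lower at an unadjusted p under 0.05. The shares of all genes were again 16.6% and 32.6%.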
